A study of Homo sapiens with 15 samples.

Results

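The 253 widest BG4 regions of K562 chromatin, each 500 bp or wider, are described here. They were chosen by width alone from the authors' deposited list of high-confidence regions on chromosomes 1 to 22 and X, and make up 253 of 8937 regions (2.83%). K562 is an established human chronic myelogenous leukaemia line that carries the BCR-ABL1 fusion, and its cells were grown without treatment. BG4 is an antibody raised against G-quadruplexes, and chromatin was precipitated with it in 2 biological replicates, sequenced as 2 technical libraries of replicate 1 (1a and 1c) and 3 of replicate 2 (2a, 2b and 2c). Per the labels' protocols the chromatin was cross-linked and sheared to fragments of 100 to 500 bp, so every member was at least as wide as the longest fragment aimed for. The number of reads behind each library is unknown. Inside the lists of 2a and 2c the peaks are named with the letter of the opposite list. The sample labels were used, and values of this pair of libraries could be exchanged.

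A G-quadruplex is a four-stranded stack that DNA can form where several runs of guanines lie close together. Such runs are dense in CpG islands, which hold most human promoters and are mostly unmethylated, and in GC boxes, the sites bound by SP and KLF zinc finger factors. A region of BG4 signal can hold 1 quadruplex motif or many, on either strand. In the text a motif is 4 runs of at least 3 G each, joined by loops of 1 to 7 bases, searched on both strands, and a match is a description of the letters and not of a folded structure.

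Most members held motifs, and some were packed with them. The motif nearest the summit is shown for each of the 6 members with most separate motifs, since these sequences show what the letters look like where motifs are most numerous. Each is written on its G-rich strand from the hg19 reference sequence, 5′ to 3′, and capitals mark runs of 3 or more G.
FAAP20 gene body, chr1:2136753-2136775 (minus strand): GGGcGGGaccctgcGGGGcGGGG
FAH promoter, chr15:80444900-80444920 (plus strand): GGGGaGGGGcGGGGctcaGGG
NMT2 promoter, chr10:15210720-15210737 (minus strand): GGGcGGGGcGGGGcGGGG
PNPLA7 intron, chr9:140387025-140387044 (plus strand): GGGcaGGGccgtGGGctGGG
ENSG00000289222 start, chr16:2955881-2955901 (plus strand): GGGccaatGGGcaGGGcGGGG
GSDMA promoter, chr17:38109586-38109605 (plus strand): GGGGcGGGGcGGGatcGGGG

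The member with most motifs lay at chr1:2136185-2136935, inside FAAP20, which encodes a Fanconi anaemia core complex protein, and held 12 motifs in 751 bp, all on the minus strand. Their starts were a median of 29 bp apart. Its stretch of 300 bases with most motifs, on the minus strand, shows how little sequence lay between them, with capitals marking the 10 motifs that a search of the stretch by itself found.
chr1:2136320-2136619: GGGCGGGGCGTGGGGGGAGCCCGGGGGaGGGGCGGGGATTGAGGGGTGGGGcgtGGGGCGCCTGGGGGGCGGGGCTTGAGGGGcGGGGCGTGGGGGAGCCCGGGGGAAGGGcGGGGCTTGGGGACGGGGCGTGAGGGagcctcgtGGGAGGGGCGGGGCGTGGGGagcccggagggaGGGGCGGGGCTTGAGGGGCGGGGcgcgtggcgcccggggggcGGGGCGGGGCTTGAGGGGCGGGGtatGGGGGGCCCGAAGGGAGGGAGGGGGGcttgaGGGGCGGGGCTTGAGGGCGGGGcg
The intronic member of PNPLA7, a lysophospholipase gene, at chr9:140386947-140387474 held 10 motifs in 528 bp, all on the plus strand. A search of its stretch of 300 bases found 7 motifs, in capitals.
chr9:140387102-140387401: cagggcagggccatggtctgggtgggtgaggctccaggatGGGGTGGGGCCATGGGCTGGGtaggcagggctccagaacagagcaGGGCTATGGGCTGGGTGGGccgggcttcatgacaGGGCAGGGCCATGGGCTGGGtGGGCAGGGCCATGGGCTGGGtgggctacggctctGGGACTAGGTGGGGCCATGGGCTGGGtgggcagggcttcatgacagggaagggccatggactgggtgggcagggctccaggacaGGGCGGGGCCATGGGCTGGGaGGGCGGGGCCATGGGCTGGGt
No transcript of any kind started within 1 kb of the middle of these 2 members. The other 4 lay at start sites. FAH, the last enzyme of tyrosine breakdown, had 11 motifs in 595 bp, NMT2, an N-myristoyltransferase, 10 in 552 bp, ENSG00000289222, a long noncoding RNA, 9 in 725 bp, and GSDMA, a pore-forming gasdermin, 9 in 711 bp. In each of the 6 members all motifs lay on 1 strand.

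Across the 253 members there were 552 motifs, or 3.58 per kb, against 2.32 per kb in the 8684 narrower regions and 2.55 per kb in those of at least 200 bp. No motif was found in 64 members, 1 in 59 and 2 or more in 130. A wider region has more room, and a motif cut by the edge of a region was not counted. The count and the density are thus both set partly by the rule. In a window of fixed size, the central 200 bp, a motif lay in 110 of 253 members (43.5%, 95% Wilson interval 37.5 to 49.6) and in 2927 of 8684 narrower regions (33.7%, 32.7 to 34.7). The difference was 9.77 percentage points (Newcombe interval 3.72 to 16.0), and 6.45 points without library 2c. Centred on the summit, the median position of the strongest peaks of the libraries, the shares were 48.2% and 33.0%, a difference of 15.3 points (9.10 to 21.5). Against the 4407 narrower regions of at least 200 bp the central difference was 5.47 points, with an interval from -0.667 to 11.8 that includes 0, while the summit difference was 11.4 points (5.12 to 17.7). Standardised to the members' GC content in bins of 5 points, the central difference from all narrower regions was 6.12 points and the summit difference 9.59 points. Against narrower regions of at least 200 bp these were 4.67 and 8.24 points, over 252 members. No interval was computed for the standardised values, and the summit was standardised only after the data were seen.

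**Figure D1:**
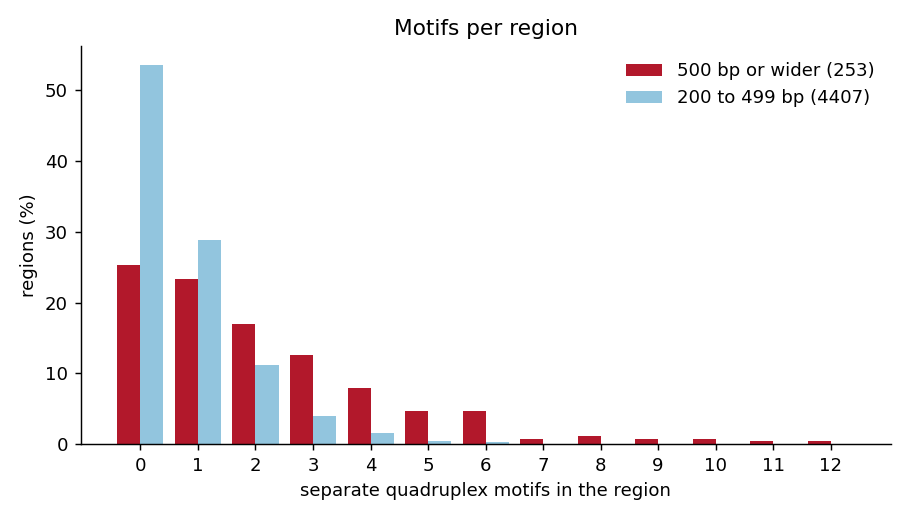
Share of regions (vertical axis, %) by the number of separate quadruplex motifs in the region (horizontal axis), for the 253 members (red) and the 4407 regions of at least 200 and under 500 bp (blue). Members hold 3 or more motifs in 34.4% and the other regions in 6.47%, and 12 motifs is the highest number.

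Motif coverage dipped around the summit, taken in bins of about 20 bp. Within 50 bp of the summit 93 of 253 members (36.8%) had a motif, against 24.7% of narrower regions. In the bin at the summit a mean 6.89% of members had a motif base. The bins 20 bp to its left and right on the plus strand had 6.12% and 6.76%, and those at 100 bp 11.2% and 13.7%. The 2 farthest summits of the libraries lay a median of 184 bp apart at members, so the dip cannot be placed to a base. Narrower regions had a shallower form of the same profile, with 4.95% at the summit and 5.51% and 5.84% at 100 bp to the left and right. Members stayed above the narrower regions out to 500 bp, where the values were 5.86% and 4.38% on the left and right against 2.97% and 2.95%. Relaxing the motif to loops of 1 to 12 bases left 27 members with none, and runs of 2 or more G left 1.

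**Figure D2:**
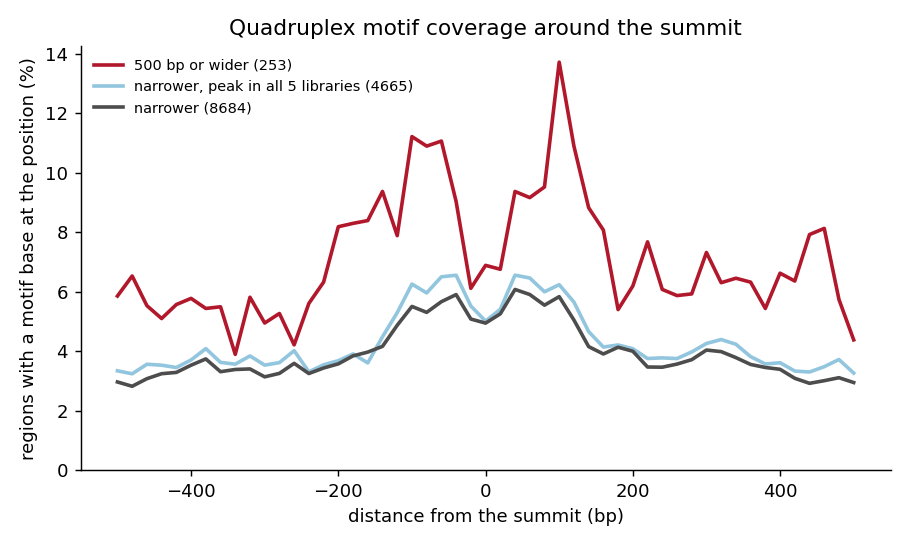
Share of regions with a quadruplex motif base (vertical axis, %) by distance from the summit (horizontal axis, bp, bins of about 20 bp), for members (red), narrower regions with a peak in all 5 libraries (blue) and all narrower regions (grey). The red line reaches 13.7% at 100 bp on the right and dips around the summit, with 6.12% at -20 bp, 6.89% at the summit and 6.76% at 20 bp.

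The member without even the relaxed motif stood apart from the rest. It covered a coding exon of POT1, the shelterin protein that binds the single-stranded end of telomeres, at chr7:124503375-124503900 (526 bp). Its GC content was 37.8%, while the next lowest member had 57.5% and the median member 71.2%. The region spanned the whole exon of 291 bp, which made up 55.3% of it, plus 29 bp of intron on one side and 206 bp on the other. Its fold enrichment, the authors' ratio of signal to local background, was 8.32 in 1a and 7.07 in 1c, and 8.39, 6.68 and 8.45 in the replicate 2 libraries 2a, 2b and 2c, at percentiles of 59.7 to 84.2 among the peaks of each library. Its −log10 p, as the authors gave it, was 57.9 and 59.4 in 1a and 1c, where the median member had 27.3 and 22.1. In 2a, 2b and 2c it was 14.8, 11.2 and 18.5, where the median member had 21.1, 19.8 and 24.7, so by this measure the peak was high in replicate 1 and low in replicate 2. Among all 8937 regions, 3 of 200 bp or more had a GC content under 50%. A second, narrower region of 296 bp and 64.5% GC lay at the POT1 promoter, 65997 bp away. The 200 bases of intron next to the exon are printed with runs of 3 or more G or C in capitals, because they show an AT-rich stretch inside a BG4 region. The whole member held 9 such runs, 6 of them in the exon, and the median member 40. It was singled out after its values were seen.
chr7:124503695-124503894: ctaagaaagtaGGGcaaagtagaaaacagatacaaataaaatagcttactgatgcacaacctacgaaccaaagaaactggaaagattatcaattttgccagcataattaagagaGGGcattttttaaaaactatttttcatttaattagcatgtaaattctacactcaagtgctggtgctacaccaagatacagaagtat

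Most members lay at promoters. A protein-coding start site lay within 1 kb of the middle of 206 members (81.4%, 76.2 to 85.7), against 76.0% of narrower regions, a difference of 5.42 points (0.0972 to 9.83). It was 1.97 points without library 1a and 1.18 points at a threshold of 600 bp. Against narrower regions of at least 200 bp the difference was -0.470 points (-5.83 to 3.99). Another 26 members lay at a start site of other transcripts only, and 21 (8.30%) within 1 kb of none, against 15.4% of narrower regions. At the middle, 128 members lay outside genes (50.6%, against 48.7% of narrower regions) and 58 in introns (22.9% against 28.4%). UTR exons held 51 (20.2% against 15.0%) and coding exons 10 (3.95% against 2.22%). The other 6 lay in genes with other transcripts only (2.37% against 5.62%).

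How far a region reaches from a start site, and whether it covers it, depends on the width that chose the members, so the following values are a description with no test. At the 170 members at non-divergent promoters, the upstream edge had its median at -468 bp and the downstream edge at 103.5 bp, counted from the start site. The 5654 narrower regions of that kind had theirs at -168 and 41 bp. The upstream edge was thus 300 bp farther out and the downstream edge 62.5 bp farther downstream. The start site itself was covered by 149 of 170 members (87.6%) and by 67.5% of narrower regions. The middle lay over 200 bp upstream in 84 of 206 promoter members (40.8%) and in 7.62% of narrower promoter regions. Over 200 bp downstream it lay in 3.88% and 5.35%.

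**Figure D3:**
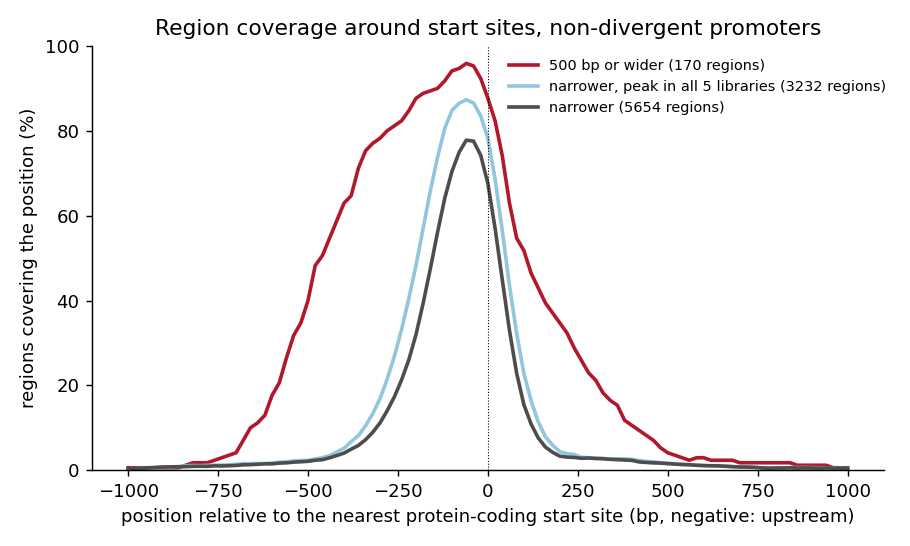
Share of regions covering each position (vertical axis, %) by distance from the nearest protein-coding start site (horizontal axis, bp, negative is upstream), for non-divergent promoters. Members (red, 170) still cover -400 bp in 62.9% and 400 bp downstream in 10.6%, while narrower regions (grey, 5654) do so in 4.03% and 2.33%.

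Motifs were denser upstream of the start site, at 3.85 per kb of member sequence, than downstream, at 2.82 per kb. The narrower regions had 2.84 and 1.69 per kb. Motifs cut by the edge of a region were not counted, so these densities depend partly on width. Upstream, the G runs lay on the coding strand in 142 of 285 motifs (49.8%, 44.1 to 55.6). Downstream they did so in 55 of 82 (67.1%, 56.3 to 76.3), beside 61.3% (57.2 to 65.2) in narrower regions. Motifs of 1 region are not independent, so these intervals are too narrow.

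Strict CpG islands, windows of 500 bp with a CpG ratio, observed over expected, of 0.65 or more and a GC content of 55% or more, held 236 of 253 members (93.3%, 89.5 to 95.8) and 82.4% of narrower regions. The difference was 10.8 points (6.98 to 13.5), and 4.69 points (0.810 to 7.36) against narrower regions of at least 200 bp. The islands under members were longer, with a median of 1812 bp against 1496 bp, and a member took up a median 33.9% of its island. Of the 17 members outside a strict island, 12 were also away from every start site. Mean GC content of the central 200 bp was 71.1% (SD 7.01) in members and 69.6% (SD 7.47) in narrower regions, a difference of 1.49 points (0.608 to 2.36) that came to 0.253 points (-0.635 to 1.14) against narrower regions of at least 200 bp. Divergent promoters were those with protein-coding start sites on both strands within 1 kb of the middle. Whether the starts faced away from each other was not checked. They held 36 members (14.2%) and 10.9% of narrower regions, a difference of 3.34 points whose interval (-0.495 to 8.22) includes 0. It was 0.993 points without library 1a, 1.88 without 2b and 0.989 without 2c. At 41 members (16.2%) 2 or more protein-coding genes had a start site, and at most 3 did. Among narrower regions the share with 2 or more was 12.3%, a difference of 3.93 points whose interval (-0.161 to 9.02) includes 0.

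Of these 41 members 3 had start sites of 3 genes, and 38 those of 2 genes, of which the 2 widest are named. ZNF664, CCDC92 and RFLNA shared a member of 537 bp with 6 motifs at chr12:124457298-124457834. VMAC, NDUFA11, a subunit of respiratory complex I, and ENSG00000267740 shared 1 of 731 bp at chr19:5904222-5904952. BRCC3, a deubiquitinase, CMC4 and MTCP1 shared 1 of 500 bp at chrX:154299330-154299829. TSEN34, a tRNA splicing endonuclease subunit, and MBOAT7, a phospholipid acyltransferase, shared 751 bp with no motif, and LEPROT and LEPR, the leptin receptor, 746 bp with 4 motifs.

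Short letters of known promoter factors were counted in the 200 bp at the summit, on both strands. The GC box GGGCGG was in 216 members (85.4%) and in 74.2% of narrower regions, a difference of 11.2 points (6.20 to 15.1). It overlaps with quadruplex motifs in its G runs. Over windows of the same length at 78394 protein-coding start sites its share was 43.4%. Those windows were centred on the start site, not on a summit, and were taken inside and outside islands alike. CCAAT was in 39.9% of members and 31.8% of narrower regions, a difference of 8.12 points (2.19 to 14.3), with 23.1% at all start sites. Among narrower regions with a peak in all 5 libraries these boxes were in 80.5% and 37.4%. The NRF1 motif GCGCATGC was in 6 members (2.37%) against 5.12%, a difference of -2.75 points (-4.12 to -0.0117). For the ETS motif CCGGAAG the shares were 9.49% and 13.1%, for TGACGTCA 1.98% and 3.18%, for the GATA letters AGATAA 1.98% and 4.32%, and for TATAAA 0.791% and 1.36%, and each of these 4 intervals includes 0. The 7 intervals were not adjusted for their number.

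The width itself, the fold enrichment and the number of libraries come from the same readout as the rule and are given as description only. Members had a median width of 568 bp. Of them 156 were under 600 bp wide, 57 were 600 bp or more but under 700 bp, 27 from there to under 800 bp and 13 were wider, with 4 of 1000 bp or more. Rebuilt from 4 libraries, with 3 still needed, the list held 161 members without 1a, 160 without 2c and 181 to 208 without each of the others. All 5 libraries had a peak at 251 of 253 members, and at 55.0% of all 8937 regions. Most members were 1 peak in each library and not several joined ones: this held for 243 members in 1a, 238 in 1c, and 229, 223 and 247 in 2a, 2b and 2c. Peaks of 500 bp or more numbered 494 and 381 in 1a and 1c, and 209, 190 and 431 in 2a, 2b and 2c, so the libraries differed in how many wide peaks they gave. Of these, between 45.5% (1a) and 79.5% (2b) lay on members. Median fold enrichment at members was 12.2, 10.5, 10.3, 8.99 and 9.42 in the order 1a, 1c, 2a, 2b, 2c, and at narrower regions 7.84, 7.13, 6.91, 6.44 and 6.52. The 2 farthest of the libraries' strongest summits lay a median of 184 bp apart at members and 82 bp at narrower regions. At narrower regions with a peak in all 5 libraries it was 88 bp.

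**Figure D4:**
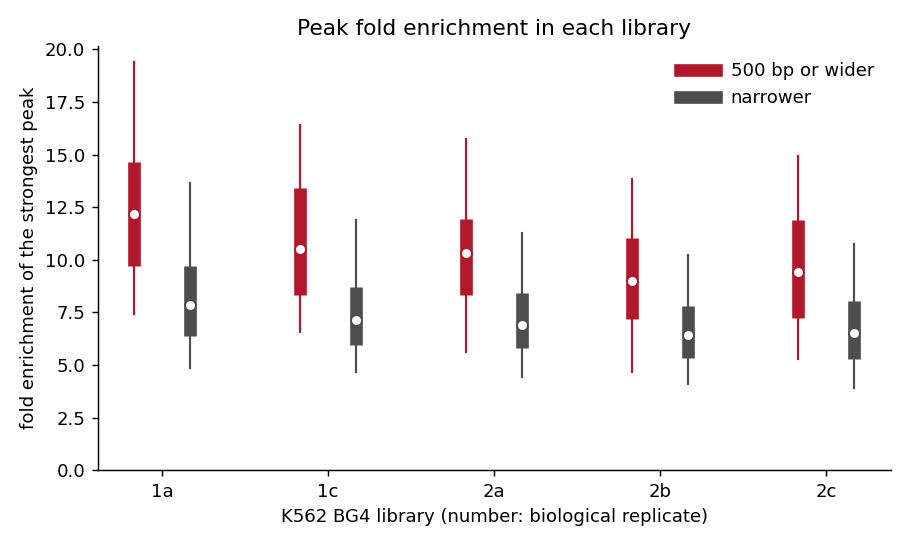
Fold enrichment of the strongest peak (vertical axis, the authors' ratio to local background) in each K562 BG4 library (horizontal axis), for members (red) and narrower regions (grey). Points are medians, thick bars the middle 50% and thin lines the 5th to 95th percentile of regions, and the members' medians of 8.99 to 12.2 lie above the narrower regions' 6.44 to 7.84.

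The sequence differences were also taken within each library between its own peaks of 500 bp or more and its narrower peaks. The motif share of the central 200 bp was higher in wide peaks in 5 of 5 libraries, by 10.3 to 12.5 points, and by 11.4 ± 0.212 points when each biological replicate counted once (SD, n = 2). The strict island share was higher in 5 of 5, by 18.1 ± 6.28 points (SD, n = 2). The promoter share was higher in 5 of 5, by 11.3 ± 7.07 points (SD, n = 2), from 3.76 in 2a to 17.6 in 1a. A library's narrower peaks include short ones and ones outside the high-confidence list. Their promoter share ran from 62.4% in 1a to 76.7% in 2b, beside 76.0% of narrower regions of the list. These differences are thus not comparable with those between listed regions. GC content was higher by 2.54 ± 0.218 points (SD, n = 2). With 2 biological replicates the exact sign permutation test, two-sided, gave p = 0.5 for each, the smallest it allows. The libraries' lists share most sites, so the 5 differences are not independent.

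Of the 10 widest members most lay at promoters. The widest, 1609 bp at chr21:9825450-9827058 over the microRNA genes MIR3687 and MIR3648, had fold enrichment of 3.44 and 3.60 in 1a and 1c, the lowest of all members in these libraries, 2.83 and 1.94 in 2a and 2b, and no peak in 2c. Its −log10 p was 50.6 and 53.7 in 1a and 1c, above the medians of members given for POT1, and 30.7 and 13.4 in 2a and 2b. Of its 32-base words, 84.9% occurred elsewhere in the reference, in up to 4 copies in all, and whether reads of the copies were mixed was not tested. The only other member lacking a peak in a library was MIR663AHG, 528 bp at chr20:26189769-26190296, also without one in 2c, with fold enrichment of 4.09, 4.59, 2.75 and 1.92 in the other libraries and 13.9% repeated words. Its values in 2a and 2b were the lowest of all members in these libraries.

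CASP9, the initiator caspase of the mitochondrial death pathway, had 1098 bp at chr1:15850610-15851707, with the middle in a UTR exon 63 bp past the start site and 5 motifs. Its fold enrichment was 14.3 and 13.4 in 1a and 1c, and 12.1, 9.88 and 8.53 in 2a, 2b and 2c. All 5 libraries covered 93.8% of this member, so its width did not rest on 1 library. MAZ, a zinc finger factor that binds G-rich DNA, had 1024 bp at chr16:29816732-29817755 with 7 motifs, and fold enrichment of 11.2, 6.86, 8.88, 8.73 and 8.97 in the order of the libraries. CCDC9 had 1004 bp, with the middle in an intron 438 bp past the start site, at chr19:47759719-47760722 with 4 motifs and values from 11.03 to 19.9.

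SKIL, a repressor of TGF-beta signalling, had 936 bp at chr3:170074559-170075494 with 4 motifs. SETD5, a SET domain protein, had 906 bp at chr3:9437942-9438847 whose middle lay 905 bp upstream of the start site, and the next region was 262 bp away. All 5 libraries covered 49.6% of the SETD5 member, and the widest peak there was 344 bp wide in 1a, which had 2 peaks on the member, and 955 bp in 2b, which had 1. YPEL1 had 904 bp at chr22:22089817-22090720 and MATN1-AS1 901 bp at chr1:31190809-31191709, with 4 and 6 motifs. A member of 989 bp lay in a coding exon of PRR36 at chr19:7934973-7935961, beside the start of the noncoding transcript ENSG00000268120, with 15.7% repeated words. LMTK3, a membrane kinase gene, had an intronic member of 843 bp at chr19:48996073-48996915, 5168 bp from the nearest protein-coding start site, with fold enrichment of 23.7, 17.8, 14.9, 14.8 and 15.9 in the same order. Its lowest rank among the peaks of a library was the 99.5th percentile by fold enrichment, the second highest lowest rank of all members.

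The summit window of the CCDC9 member is printed because it shows a wide promoter with its motif (capitals) at the edge of the summit window and G-rich runs throughout. The windows taken in the same way at the members of MIR3687 and MIR3648, MAZ and PRR36 held no motif.
chr19:47760354-47760553: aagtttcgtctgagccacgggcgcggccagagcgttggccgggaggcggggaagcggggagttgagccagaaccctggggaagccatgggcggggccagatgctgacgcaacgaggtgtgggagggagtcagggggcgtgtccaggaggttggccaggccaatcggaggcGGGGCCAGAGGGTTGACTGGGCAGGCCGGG

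Ranked by the lowest percentile over the libraries, the first member was CLIC4 (99.8th percentile), a chloride intracellular channel protein, 520 bp at chr1:25071411-25071930, with fold enrichment of 20.9, 19.6, 16.2, 15.7 and 15.5 in the order 1a, 1c, 2a, 2b, 2c. LINC01003, KLF16, a GC-box binding factor, and the shared promoter of BLVRB, a biliverdin reductase, and SPTBN4, a spectrin, followed LMTK3. BLVRB and SPTBN4 had no motif in 545 bp, and KLF16 had 2 in 738 bp. At the other end HIP1, a clathrin adaptor, had fold enrichment of 15.5 and 14.3 in 1a and 1c but 8.34, 3.49 and 6.16 in 2a, 2b and 2c. SF1, the branch point splicing factor, had 3.44 in 2c against 8.19 to 10.9 in the others, and the TSEN34 and MBOAT7 member had 3.69 in 2b against 6.37 to 12.01. A single library put each of these 3 near the foot of its list, at percentiles of 1.53, 2.41 and 3.21.

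Far from start sites, the 5 widest members were LMTK3, UNC13A, SLC38A8, a region between STAT3 and STAT5A, and FAAP20. UNC13A, a synaptic vesicle priming protein, had 835 bp over a coding exon at chr19:17716622-17717456, 50581 bp from the nearest protein-coding start. SLC38A8, an amino acid transporter, had 782 bp in an intron at chr16:84047480-84048261 with 61.1% GC and 1 motif, and fold enrichment of 14.9 in 1a and 24.4 in 1c against 15.0, 8.98 and 9.14 in the replicate 2 libraries. The member at chr17:40464355-40465123 (769 bp, 1 motif) lay 218 bp from the end of STAT3 and 393 bp from STAT5A, both signal transducers of cytokine receptors. Of the 21 members away from start sites, 16 held a motif, 9 were in a strict island and 13 lay in a protein-coding gene by its coding transcripts.

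FAM86 genes made up a set of their own, noticed after the values were seen. The family consists of EEF2KMT, the lysine methyltransferase of elongation factor eEF2, and its duplicated copies, most of them pseudogenes. Of the 14 copies with a region at a start site, 4 had a member: FAM86C2P (767 bp, chr11:67572743-67573509), FAM86GP (678 bp, chr11:3443729-3444406), FAM86DP (648 bp, chr3:75484268-75484915) and EEF2KMT itself (598 bp, chr16:5147741-5148338). The 4 aligned with each other over 592 to 687 bp at 86.5% to 95.3% identity, and 33.9% to 46.7% of their 32-base words occurred elsewhere in the reference. Another 7 copies had 2 or 3 narrower regions whose outer edges spanned 529 to 730 bp, within or near the 598 to 767 bp of the members, and whose largest gaps were 74 to 227 bp. The remaining 3 copies, FAM86MP, FAM86B2 and FAM86B3P, had a single narrower region each, of 221, 132 and 111 bp. Whether reads of the copies were mixed was not tested. Fold enrichment at EEF2KMT was 14.1, 10.5, 12.4, 10.7 and 14.7 in the order of the libraries, and at FAM86C2P 14.6, 12.5, 11.8, 12.7 and 11.4. The stretch around the longest run of letters that all 4 hold in common, 25 bases in capitals, is printed because it shows what the copies share and where they part.
EEF2KMT, chr16:5147904-5148018: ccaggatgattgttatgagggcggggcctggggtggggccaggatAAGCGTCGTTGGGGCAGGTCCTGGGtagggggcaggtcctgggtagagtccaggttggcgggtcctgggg
FAM86C2P, chr11:67572978-67573092: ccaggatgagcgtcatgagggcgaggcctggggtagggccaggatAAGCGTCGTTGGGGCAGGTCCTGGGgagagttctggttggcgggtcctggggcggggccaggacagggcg
FAM86DP, chr3:75484419-75484533: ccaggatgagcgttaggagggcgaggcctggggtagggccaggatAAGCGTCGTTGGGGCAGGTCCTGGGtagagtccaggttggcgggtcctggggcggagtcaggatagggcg
FAM86GP, chr11:3443921-3444035: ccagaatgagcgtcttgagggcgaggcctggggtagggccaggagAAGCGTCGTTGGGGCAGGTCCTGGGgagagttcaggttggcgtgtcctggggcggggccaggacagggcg
Of all members 14 (5.53%, 3.32 to 9.07) had 10% or more repeated words, against 3.09% of narrower regions, a difference of 2.45 points (0.205 to 6.003), and 226 (89.3%) had none.

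Of the 6874 protein-coding genes with a region at a start site, 248 (3.61%) had a member. The gene lists are read against that share, and they were chosen with earlier results of these data known. Of GC-box binding KLF, SP and EGR factors 3 of 13 with a region had a member (23.1%, 8.18 to 50.3): KLF16 (738 bp), KLF10 (615 bp) and EGR1 (516 bp), the last 577 bp upstream of the start and with another region 140 bp away. Of the BCR-ABL1 list 2 of 12 did (16.7%, 4.70 to 44.8). They were CRKL, the adaptor bound by the fusion kinase, with 725 bp and no motif, and BCR with 659 bp and 2 motifs. Both lay on chromosome 22 before the end of BCR, where 9 of 121 regions (7.44%) were members. The intervals of the lists were not adjusted for their number. Fold enrichment at CRKL was 12.5, 8.23, 13.5, 10.4 and 8.29 in the order of the libraries, and at BCR 6.26, 6.04, 5.75, 4.73 and 3.92. CRKL lay above BCR in each of the 5 libraries. Of erythroid and megakaryocytic genes 1 of 10 did, ZFPM1, the GATA1 cofactor FOG1, with 660 bp and fold enrichment of 13.6, 15.7, 19.7, 10.9 and 15.0.

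Of housekeeping genes 1 of 11 had a member (TUBB, 543 bp, shared with MDC1), of mitochondrial carriers 1 of 28 (SLC25A42, 546 bp) and of ZNF genes 4 of 188 (2.13%, 0.830 to 5.34): ZNF497, ZNF217, ZNF664 and ZNF558. None of the 42 cytosolic ribosomal protein genes with a region had one, which allows a share of up to 7.14%, taking 3 counts as the limit that a count of 0 allows. None did among 18 histone lysine methyltransferases (up to 16.7%), 17 RNA polymerase II and general factors (up to 17.6%), 11 genes of the DNA methylation machinery (up to 27.3%), 8 textbook quadruplex promoters and 8 quadruplex and R-loop helicases (up to 37.5% each). Of 39 HOX genes 2 had a region and of 15 keratinocyte markers 1, with no member. None of 14 hepatocyte and 14 lymphocyte markers had a region of any width, while 10 of 22 erythroid and megakaryocytic genes did. Of all 20090 protein-coding genes 6874 (34.2%) did. The marker lists are small, and differences between them in the share with a region were not tested.

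Wide regions were unevenly spread over the chromosomes. Chromosome 19 held 49 members among 1009 regions (4.86%, 3.69 to 6.36), which was 2.28 points (1.06 to 3.82) above the rest of the genome, and held 19.4% of all members against 11.1% of narrower regions. Chromosome 21 held 7 of 107 (6.54%, 3.20 to 12.9), 2 of them with 10% or more repeated words. Chromosome 5 held 3 of 347 (0.865%, 0.294 to 2.51) and chromosome 12 held 4 of 403 (0.993%, 0.387 to 2.52). The intervals of these 4 of the 23 chromosomes leave out the overall 2.83%, and they were not adjusted for their number.

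**Figure D5:**
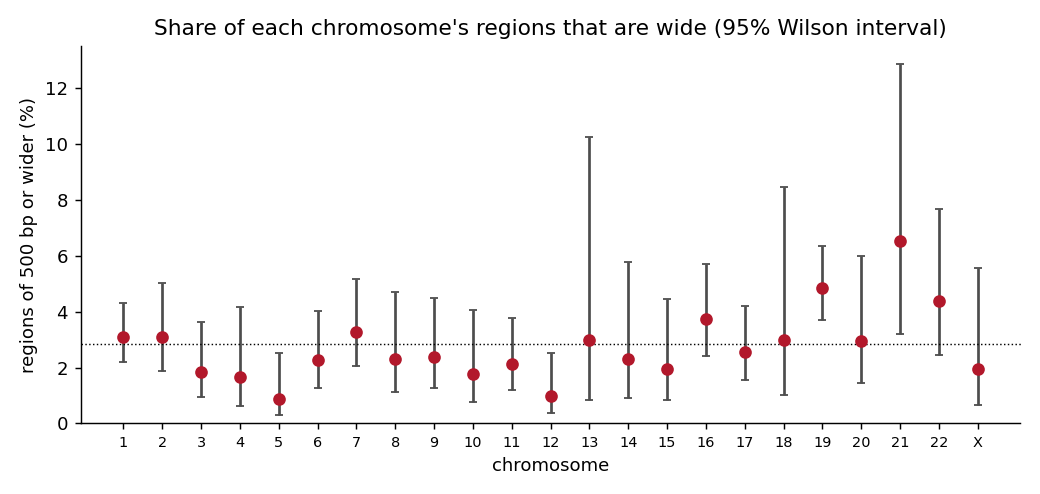
Share of each chromosome's regions that are 500 bp or wider (vertical axis, %), with 95% Wilson intervals as bars and the share over all regions, 2.83%, as a dotted line. Chromosomes 19 and 21 lie above the line with their whole interval and chromosomes 5 and 12 below it.

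On chromosome 22, 9 of the 11 members lay between the start of the chromosome and the end of BCR at base 23660224. That was 9 of 121 regions (7.44%, 3.96 to 13.5), against 2 of 130 (1.54%, 0.423 to 5.44) past BCR, a difference of 5.90 points (0.677 to 12.1), with a boundary chosen after the values were seen. Regions of all widths up to BCR had a lower median fold enrichment than those past it in all 5 libraries, from 6.35 against 8.11 in 1a to 4.33 against 6.98 in 2c. The members themselves had higher medians up to BCR than past it in 1a (11.5 against 10.4), 1c (9.93 against 9.27) and 2a (10.3 against 10.1), and lower ones in 2b (6.46 against 9.98) and 2c (5.29 against 7.17), with 2 members past BCR. On chromosome 9, 5 of 103 regions from the start of ABL1 onwards were members and 4 of 273 before it, a difference of 3.39 points (-0.169 to 9.46). The copy number of these segments, which K562 carries in altered form, was not tested.

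The threshold cut through a smooth range of widths, with 17 regions up to 10 bp under the threshold and 19 in the first 10 bp from it upwards. Just inside, at 500 bp, were the PRKCZ promoter (no motif, fold enrichment 13.8, 8.60, 8.85, 6.55 and 6.15), a region outside genes at chr16:87594329-87594828 (1 motif, 6.35, 7.78, 6.30, 4.61 and 7.14) and the BRCC3 promoter (3 motifs, 8.65, 9.21, 10.1, 7.79 and 10.6). Just outside, 1 bp under the threshold, were the promoters of PPP2R5A, a phosphatase subunit (1 motif, 16.4, 15.7, 11.4, 10.1 and 8.80), ANKRD10 (no motif, 11.6, 10.8, 14.6, 10.7 and 7.12) and DCXR, a xylulose reductase (1 motif, 10.2, 8.11, 3.93, 5.64 and 4.69). The values of both sides overlapped.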

How the data were processed

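Peaks were called with MACS2 on hg19, per the submitters' processing notes; for the aligner, control and settings, the sources used here give nothing. The authors' deposited lists, 1 per library, hold per peak the fold enrichment (a ratio to local background), the −log10 p and −log10 q at the summit and a score derived from the −log10 p. The deposited high-confidence list holds positions alone. All 8955 of its regions were rebuilt exactly as the stretches covered by peaks of at least 3 of the 5 libraries. Members had end minus start of at least 500 bp; 15 mitochondrial and 3 chromosome Y regions were left out. Start sites were taken from the GRCh37 mapping of GENCODE release 44, with a promoter region defined by a middle within 1 kb. Repeated 32-base words were counted over the whole reference. Shares have 95% Wilson intervals and differences Newcombe intervals, computed in Python 3.11.15 with numpy 2.4.6 and pandas 2.3.3 in code tested on simulated data. These intervals cover counting error over regions only, and nearby regions may depend on each other. An SD was taken over the 2 biological replicates, each the mean of its technical libraries.

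Named were the 10 widest members, the 6 with most motifs, those at the threshold, the 5 widest away from start sites, those lacking a library, up to 4 genes per list, the 5 highest and 3 lowest by lowest fold percentile and the 5 with most genes; exceptions are marked. The members, lists and tests were chosen with earlier results of these data known. The 2 K562 input libraries and the 8 HaCaT bisulfite libraries were not analysed here.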

Additional observations from a re-analysis of the deposited data

Results flagged for a closer look

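Outside the rule, 8 of the 15 mitochondrial regions in the deposited list were 500 bp or wider. They are a signal in data that the comparisons did not use. No library of the K562 inputs was analysed here, so the mitochondrial level without the antibody is not given. Groups of 2 and 3 libraries were too small for the test of a single sample far from the others.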

How the results depend on the processing

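The member count was 694 at a threshold of 400 bp and 97 at 600 bp, 161 without library 1a and 160 without 2c, and 160 to 208 over the 5 libraries left out in turn. Against narrower regions of at least 200 bp the promoter difference turned to -0.470 points, the support difference fell to 12.3, the strict island difference to 4.69 and the GC difference to 0.253. The support difference was 46.9 at 400 bp and 49.9 with peaks of −log10 p of 10 or more, where the strict island difference was 6.28. At 600 bp the divergent difference was -3.81 points. Among regions with a peak in all 5 libraries the strict island difference was 4.57 and the GC difference 0.348. Windows of 400 bp gave 3.78 for GC and 16.1 for the motif share, and runs of 2 or more G gave 0.838 for the motif share. Apart from these the differences stayed within the interval of the reported value. Leaving out regions with 10% or more repeated words was chosen after seeing the data, as were the summit windows with GC standardisation or with a peak in all 5 libraries.

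No paired analysis was possible because the groups that share replicate numbers, those of HaCaT, were not analysed here. The differences taken within each library compare peaks of 1 library, not samples of paired groups. The depth of the libraries is unknown, so a missing peak cannot be told apart from low depth. With 2 biological replicates no test over replicates passes a threshold of 0.05.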
